A study of Caenorhabditis elegans with 2 samples.

Results

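The genes described here are 6 repressors of the Polycomb type in Caenorhabditis elegans: sor-1, sor-3, sop-2, mes-2, mes-3 and mes-6. They were chosen by name, with earlier results of these data known, out of 19973 coding genes on the 6 nuclear chromosomes. Each was read over 1 window, from 2000 bp upstream of the annotated 5' end to the 3' end, and every deposited peak summit in that window was listed. The peaks come from chromatin of whole young adults of mixed sex, aged 72 hours and synchronised by starvation as first-stage larvae after bleaching. The animals were of strain OP214, which combines unc-119(ed3) III with the transgene wgIs214. That transgene encodes K12H6.12 with GFP and FLAG at its C-terminus, and the pull-down used an antibody against GFP. Both samples, biological replicates 2 and 3, belong to this 1 group, so the labels imply no comparison between conditions. No sample without the tag was analysed here, so whether a peak depends on K12H6.12 was not tested. In whole animals, occupancy in many cells and strong occupancy in a few cannot be told apart.

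Polycomb proteins keep developmental genes silent in cells where they were silent before. In C. elegans, MES-2, MES-3 and MES-6 form the counterpart of Polycomb repressive complex 2, which methylates lysine 27 of histone H3 and is known for its role in the germ line and in silencing the X chromosome there. SOP-2, SOR-1 and SOR-3 act in the soma to keep Hox genes within their proper domains. SOP-2 and SOR-1 bind RNA and are not close relatives of the fly Polycomb proteins in sequence.

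Peaks stood upstream of all 3 genes of the SOP-2 and SOR group and at none of the 3 mes genes in the stricter of the deposited lists. That list was thresholded by the irreproducible discovery rate (IDR), a measure of how alike peaks rank in both replicates. It held 2268 peaks, which are also the 2268 strongest of the list called on the pooled replicates, so membership follows pooled signal. Of their summits, 2218 were covered by a peak in both replicates. In the 6 windows fell 4 of the IDR summits: a pair at sor-1, 1 at sor-3, beside a tRNA gene, and 1 at sop-2. The division between the 2 groups of genes lies close to the threshold. The sop-2 summit had a pooled signal of 98.2, beside 97.9 for the weakest IDR peak. In replicate 2 alone, the strongest peak of mes-2 (45.7) exceeded that of sop-2 (45.1). Of all coding genes 11.4% had an IDR summit in the same kind of window, against which the 3 of 6 genes here are a description only. These values were known when the 6 genes were chosen, so no test was made on them. The 6 windows had a median length of 6484.5 bp and those of all coding genes 4027 bp. With the window narrowed to 1000 bp upstream and 200 bp downstream of the 5' end, the count was again 3 of 6, beside 7.10% of coding genes.

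The sequences under these summits are shown because they surround the strongest listed summits at these genes. All are read on the plus strand of ce11, which is the strand of each gene. Most span 101 bases centred on the summit. At sor-3 the stretch runs on to take in a leucine tRNA gene, whose bases are in capitals. At mes-2 it is the strongest summit of the pooled list, which is not in the IDR list.
sor-1, stronger summit, chrIII:8417559-8417659: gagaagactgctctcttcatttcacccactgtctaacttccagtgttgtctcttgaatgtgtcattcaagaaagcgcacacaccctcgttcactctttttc
sor-1, weaker summit, chrIII:8417768-8417868: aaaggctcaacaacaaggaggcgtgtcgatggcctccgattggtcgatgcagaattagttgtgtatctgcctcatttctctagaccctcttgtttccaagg
sor-3, chrX:353250-353408: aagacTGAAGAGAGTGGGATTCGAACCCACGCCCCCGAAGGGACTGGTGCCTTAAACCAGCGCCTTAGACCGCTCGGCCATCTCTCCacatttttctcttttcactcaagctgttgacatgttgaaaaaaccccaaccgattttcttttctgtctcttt
sop-2, chrII:12339282-12339382: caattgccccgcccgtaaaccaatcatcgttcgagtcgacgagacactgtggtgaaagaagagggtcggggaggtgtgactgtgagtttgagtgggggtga
mes-2, chrII:14383775-14383875: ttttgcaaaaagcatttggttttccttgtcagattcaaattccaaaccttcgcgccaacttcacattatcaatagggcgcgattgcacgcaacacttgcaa

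Of 4 short words searched on both strands of the 101-base window at each summit shown, 1 was found. The word GAGAGA was in the sor-3 window, on the minus strand, and was in neither sor-1 window nor at sop-2. The mes-2 window held none of the 4. The match lay inside the tRNA gene. Among all 2268 IDR windows of this length, 30.4% held it. The word CTGCGTCT was in none of the IDR windows of these genes and in 10.1% of all. The E-box word CACGTG was likewise in none, and in 4.94% of all. A run of TTTTTTTT was in none, and in 4.76% of all. The letters G and C made up 44.6% at the stronger sor-1 summit, 48.5% at the weaker, 43.6% at sor-3, 55.4% at sop-2 and 41.6% at mes-2. The middle quartiles of the IDR windows lay between 43.6% and 53.5%, so sop-2 was above this middle range and mes-2 below it.

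The sor-1 gene (WBGene00023405, chrIII:8418168-8422654, plus strand) carried the strongest peaks of the 6 genes. Its main summit lay 559 bp upstream of the annotated 5' end and its signal, the peak caller's score, was 650 in the pooled list. That placed it at rank 16 of 30000 pooled peaks, and 20 coding genes had a stronger peak in their own windows, since windows of neighbouring genes can share a peak. A second summit in the same interval, 209 bp nearer to the gene, had a signal of 169 and rank 838. Of the IDR entries, 40 share their interval with another. Among the 6 genes sor-1 alone had more than 1 IDR summit, as did 1.56% of all coding genes. Among the 1134 strongest IDR peaks, summits lay at sor-1 and sor-3 and no longer at sop-2, beside 6.09% of coding genes.

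Each replicate alone showed the same pair of summits at sor-1. The stronger had a signal of 372 in replicate 2, at rank 17, and 270 in replicate 3, at rank 23, with summits 22 bp and 1 bp from the pooled one. The weaker had 75.4 in replicate 2 and 67.1 in replicate 3, at ranks 1354 and 1169. The nearest coding gene before sor-1, ZK353.9, ends 6150 bp away, and no other annotated gene lies between, so sor-1 is the gene with the nearest 5' end for both summits. Inside the gene the only pooled summit, 3997 bp downstream of the 5' end in a coding exon, was weak, with a signal of 26.6 and rank 26267. It was met by a summit of replicate 2 within 100 bp and by none of replicate 3. Coding genes with the most similar strongest peak were Y39E4B.6, with a signal of 663 at rank 15, and epn-1, which encodes an epsin of clathrin endocytosis, with 634 at rank 17. The Y39E4B.6 summit lay 45 bp upstream on chromosome III, and the epn-1 summit 478 bp upstream on chromosome X.

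At sor-3 (WBGene00015429, chrX:353619-357939, plus strand), which encodes an MBT-repeat protein, a single summit was listed. It lay 261 bp upstream of the 5' end, with a signal of 201 and rank 560 in the pooled list. Replicate 2 gave 90.5 at rank 956 and replicate 3 gave 102 at rank 477. No list held any other summit in the sor-3 window. In the pooled list 637 coding genes had a stronger peak than sor-3.

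A tRNA gene stands beside this sor-3 summit. The leucine tRNA gene C04E7.t1 (WBGene00022908, chrX:353255-353336, minus strand) has its nearer end 22 bp before the pooled summit. The non-coding RNA gene C04E7.7 spans it and ends at 353341. The replicate summits were nearer still, 5 bp beyond the tRNA gene in replicate 2 and 3 bp beyond it in replicate 3, both inside C04E7.7. The tRNA gene's 82 bases occur as 9 exact copies in the genome. Of the 31-base words in the sor-3 peak interval 85.4% were unique in the genome, and in the part of the interval beyond the tRNA gene all 219 were. The shares of this peak that belong to sor-3 and to the tRNA gene were not tested.

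The peak of sop-2 (WBGene00004945, chrII:12339944-12344799, plus strand), whose product has a SAM domain, stood just inside the IDR threshold. Its summit was 612 bp upstream, with a signal of 98.2 and rank 2258. The weakest IDR peak had 97.9, and so did the strongest pooled peak outside the list. The replicates differed in where they placed it. In replicate 3 the signal was 56.8 at rank 1664, within the 2268 strongest peaks of that library, and in replicate 2 it was 45.1 at rank 3583, outside them. The −log10 q-value was 2.02 in replicate 2 and 3.56 in replicate 3. The latter is the highest that list gives to any peak, and the replicate 3 peaks upstream of sor-1 and sor-3 share it.

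The pooled list had more summits at sop-2 than at the other 5 genes, 6 in its window. In replicate 2 it had 3, as many as sor-1, and in replicate 3 it had 4, as many as mes-2. The pooled summits of sop-2 other than the IDR summit ranged in signal from 28.0 to 49.6. The strongest of these, 3004 bp downstream in a coding exon, was met within 100 bp by a summit in both replicates, with signals of 18.0 in replicate 2 and 27.9 in replicate 3. Of the rest, 3 were met in 1 replicate and 1, 410 bp upstream, in neither.

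**Figure D1:**
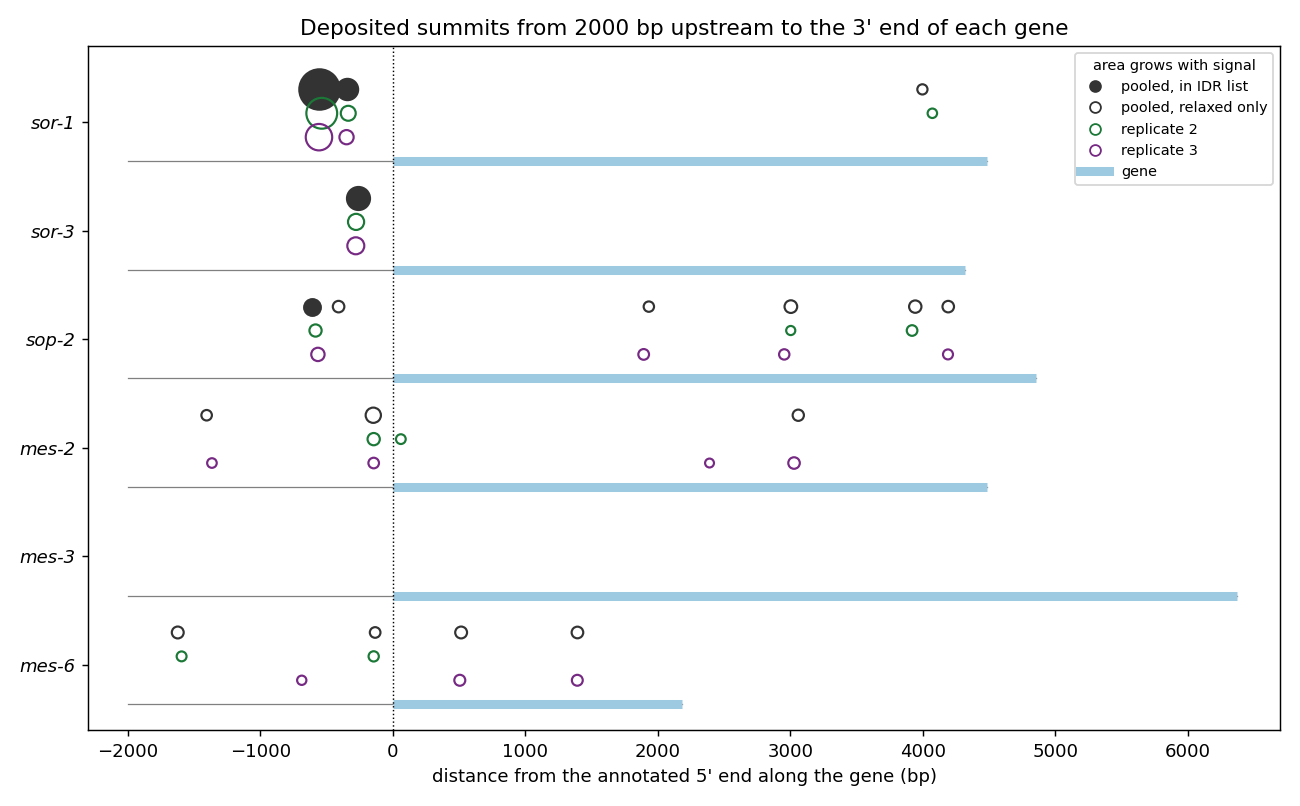
Summits in the window of each gene, by distance from the annotated 5' end in bp (horizontal axis), with 1 row per gene and, within a row, the pooled list above replicate 2 and replicate 3; the area of a circle grows with its signal, filled circles are in the IDR list and blue bars are the genes. Filled circles stand upstream of sor-1, sor-3 and sop-2, from 612 to 261 bp from the 5' end, and the row of mes-3 is empty.

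The upstream position of these peaks was the usual one for the IDR list. Of the 2275 coding genes with an IDR summit in the window, 77.5% had the strongest one upstream of the 5' end, at a median of 424 bp (quartiles 206 and 1097 bp). The strongest summits of sor-1, sor-3 and sop-2 lay 559, 261 and 612 bp upstream, all between those quartiles.

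The catalytic gene mes-2 (WBGene00003220, chrII:14383973-14388454, plus strand), counterpart of Enhancer of zeste, came closest to the IDR threshold without passing it. Its strongest pooled summit was 148 bp upstream, with a signal of 79.5, rank 3272 and a −log10 q-value of 2.54. Replicate 2 had a summit 3 bp from it with 45.7 at rank 3507. In that replicate mes-2 ranked slightly ahead of sop-2, at 45.1. Replicate 3 also had a summit 3 bp away, with only 29.9 at rank 7046. The strongest mes-2 summit of replicate 3 was instead in a coding exon 3028 bp downstream, with 38.4 at rank 3749. Replicate 2 listed no summit within 100 bp of the pooled summit there.

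The WD40-repeat gene mes-6 (WBGene00003224, chrIV:8511284-8513469, plus strand), counterpart of the fly gene esc, had weak summits alone. The pooled list placed 4 in its window, with signals from 30.3 to 41.8. Each of the 4 was met within 100 bp by a summit of exactly 1 replicate. Those 1624 and 134 bp upstream were in replicate 2, and those 515 and 1393 bp downstream in replicate 3. The strongest mes-6 signal was 26.9 in replicate 2 and 33.2 in replicate 3, at ranks 10203 and 5408. The summit 1624 bp upstream lay inside the neighbouring gene tag-77.

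At mes-3 (WBGene00003221, chrI:4996835-5003202, plus strand), which encodes the third subunit, no summit was listed in any of the 4 lists. Its window of 8368 bp was the longest of the 6. Some pooled summit was listed in the windows of 61.7% of coding genes, in replicate 2 in 59.4% and in replicate 3 in 67.0%. In all, 21.5% of coding genes had none in any list. Among the 2192 coding genes with a window at least as long as that of mes-3 the share was 4.11% (90 genes), a comparison chosen after the empty window was seen. Of the 31-base words in the mes-3 window 99.9% were unique in the genome.

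**Figure D2:**
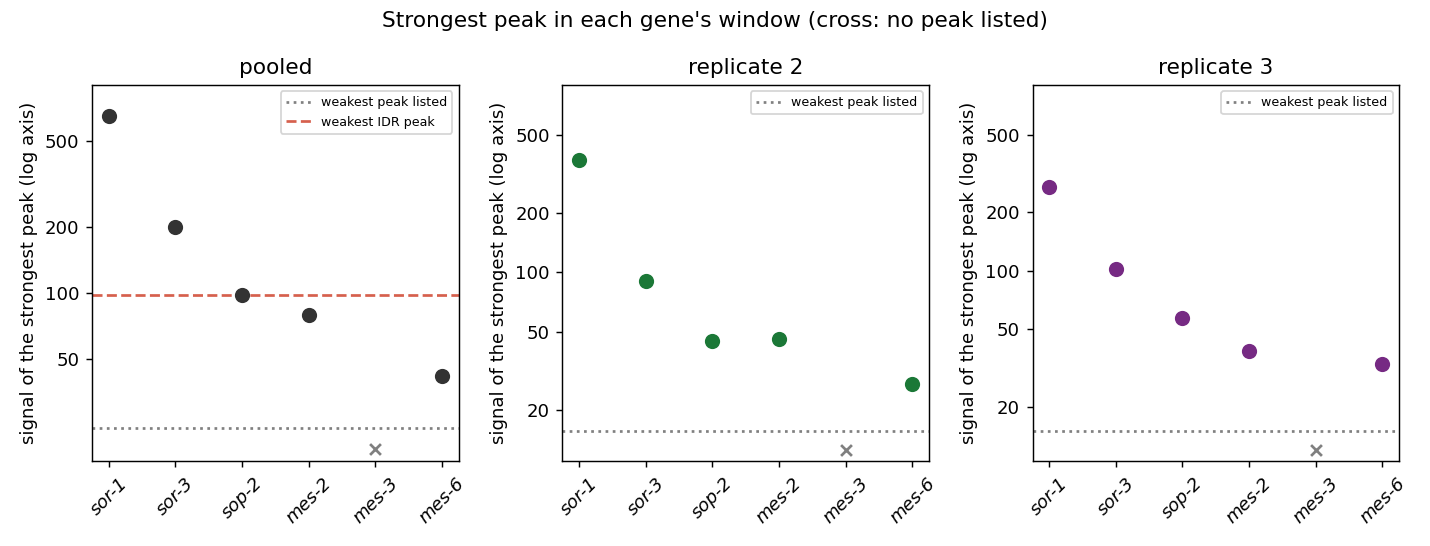
Signal of the strongest peak in each gene's window (log axis, the caller's score) in the pooled list and in replicates 2 and 3, with 1 point per gene; a cross marks no listed peak, the dotted line the weakest peak of the list and the dashed line the weakest IDR peak. The order sor-1, sor-3 and then the rest is the same in all 3 panels, while sop-2 and mes-2 are at 45.1 and 45.7 in replicate 2 and at 56.8 and 38.4 in replicate 3.

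By strongest pooled signal the order of the genes was sor-1 (650), sor-3 (201), sop-2 (98.2), mes-2 (79.5) and mes-6 (41.8), with mes-3 unlisted. Only the neighbours sop-2 and mes-2 changed places between the replicates. At the 2218 IDR summits covered in both, the log2 ratio of replicate 2 to replicate 3 had a median of 0.24 and an SD of 0.62. These figures used the strongest replicate peak over each summit, whereas the members' ratios used the replicate peak with the nearest summit. Among the members the choice matters only at the weaker sor-1 summit, which the stronger peak also covers. The ratios at the members' IDR summits were 0.46 and 0.17 on the log2 scale at sor-1, −0.17 at sor-3 and −0.33 at sop-2, each within 1 SD of that median. At the pooled mes-2 summit the log2 ratio was 0.61, also within 1 SD. All 4 summits were covered by a peak in both replicates.

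**Figure D3:**
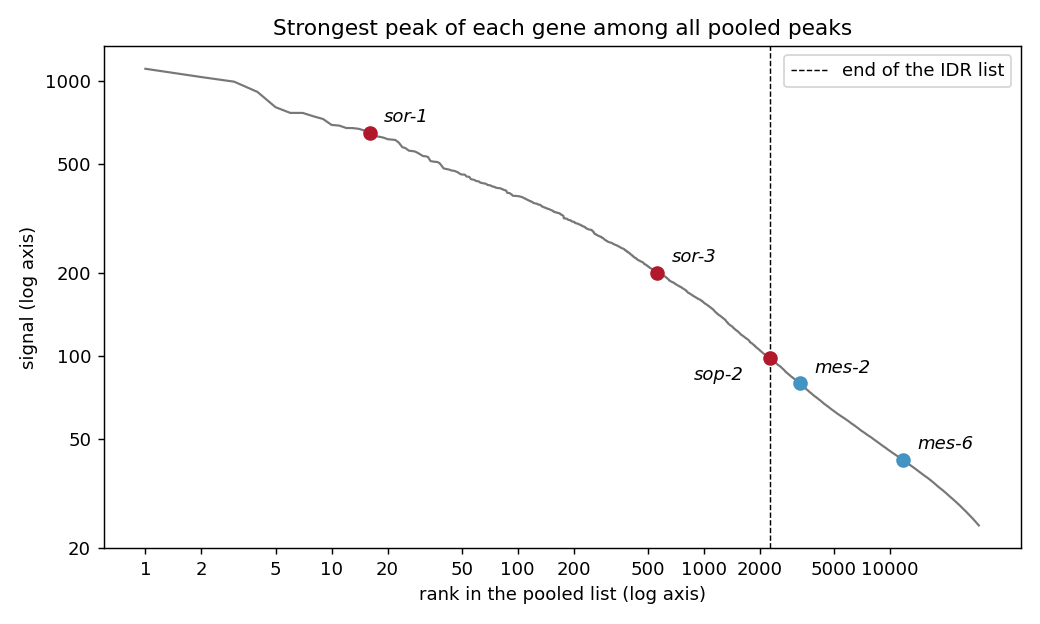
Signal (log axis) against rank (log axis) for all 30000 peaks of the pooled list (line), with the strongest peak of each gene as a point, red if in the IDR list and blue if not; the dashed line is the end of the IDR list. The sop-2 point, at rank 2258, lies on that line, and mes-3 has no point.

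At equal list lengths the replicates named nearly the same genes. Among the 2268 strongest peaks, replicate 2 had summits at sor-1 and sor-3, against 10.9% of all coding genes. Replicate 3 had them at sor-1, sor-3 and sop-2, against 11.4%. With all peaks of −log10 q above 2, sop-2 and mes-2 were added in replicate 2, making 4 genes beside 15.8% of coding genes, and the same 3 genes were found in replicate 3, beside 16.3%.

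Related chromatin genes and the Hox genes were read over windows drawn in the same way, as 34 genes in 5 lists. The lists were drawn up with earlier results of these data known, so their counts are descriptions. IDR summits lay in the windows of 13 of the 34, 38.2% beside 11.4% of all coding genes. The strongest peaks of those 13 had a median signal of 211, beside 153 over the 2275 coding genes with one. The median window of the 34 was 6313.5 bp, longer than the 4027 bp of all coding genes. In the narrower promoter window, 10 of the 34 had a summit, 29.4% beside 7.10%.

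Of 5 genes listed as Polycomb-like partners or readers of lysine 27 methylation, 2 had an IDR summit, beside 11.4% of all coding genes. The median window of the 5 was 5600 bp. The gene mes-4 was counted here and not among the H3K4 and H3K36 methylation genes. The RING-domain gene spat-3 had a pair, as did jmjd-1.2, lin-13, lin-59 and met-1 of the other lists, and its stronger one was listed with a signal of 211 at 558 bp upstream. The chromodomain gene cec-1 had 1 of 240 at 1076 bp upstream. It is the next coding gene after sor-1, starting 3678 bp beyond its 3' end. At mes-4, mig-32 and cec-6 no pooled peak exceeded 42.6. Among 5 demethylase genes of the lysine 27 list, with a median window of 7017 bp, only jmjd-1.2 had an IDR summit, with a signal of 427 at 456 bp upstream, and the gene F29B9.11 has the nearer 5' end to it. The best pooled peaks of utx-1 and jmjd-3.1 were 80.0 and 65.6, while jmjd-3.3 had 25.2 and jmjd-3.2 none.

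The list of H3K4 and H3K36 methylation genes had IDR summits at 6 of 9, beside 11.4% of all coding genes. It left out mes-4, which had no IDR summit. The windows of these 9 were long, with a median of 9709 bp beside 4027 bp for all coding genes, and that of set-16 spanned 14722 bp. The part of window length in the count was not tested. The summits were at set-16 (560), lin-59 (411), met-1 (360), ash-2 (231), set-2 (161) and mrg-1 (149.5), the numbers being pooled signals. Without an IDR summit were wdr-5.1 and dpy-30, with best pooled signals of 86.9 and 58.8, and rbbp-5, with no pooled summit listed. SET-16 and SET-2 methylate lysine 4, MET-1 methylates lysine 36, LIN-59 is related to fly Ash1 and MRG-1 is a chromodomain protein. The summit of ash-2 lay 470 bp inside the gene, 464 bp upstream of Y17G7B.20, and that of mrg-1 was nearer to spcs-2. Those of set-16, lin-59, met-1 and set-2 were 157, 466, 81 and 263 bp upstream of their own genes. Among 9 genes of H3K9 methylation and heterochromatin, IDR summits lay at lin-13 (196), cec-4 (121), cec-3 (118) and lin-61 (112), 4 of 9 beside 11.4%. The median window of this list was 4456 bp. The lin-61 summit was nearer to the 5' end of bub-1, a spindle checkpoint gene. The methyltransferase genes met-2, set-25 and set-32 had no IDR summit, nor did hpl-1 and hpl-2, which encode heterochromatin protein HP1.

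None of the 6 Hox genes, which are textbook targets of Polycomb repression, had an IDR summit in the window. The closest was lin-39, with a pooled signal of 92.0 at rank 2552, its summit 214 bp upstream. Pooled signals were 49.7 at ceh-13, 37.2 at nob-1 and 26.0 at php-3, and no summit was listed at mab-5 or egl-5. With 11.4% of coding genes marked, a count of 0 among 6 genes is near that background. The median window of the Hox genes was 6931.5 bp, beside 4027 bp for all coding genes, so this background is not matched in window length.

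**Figure D4:**
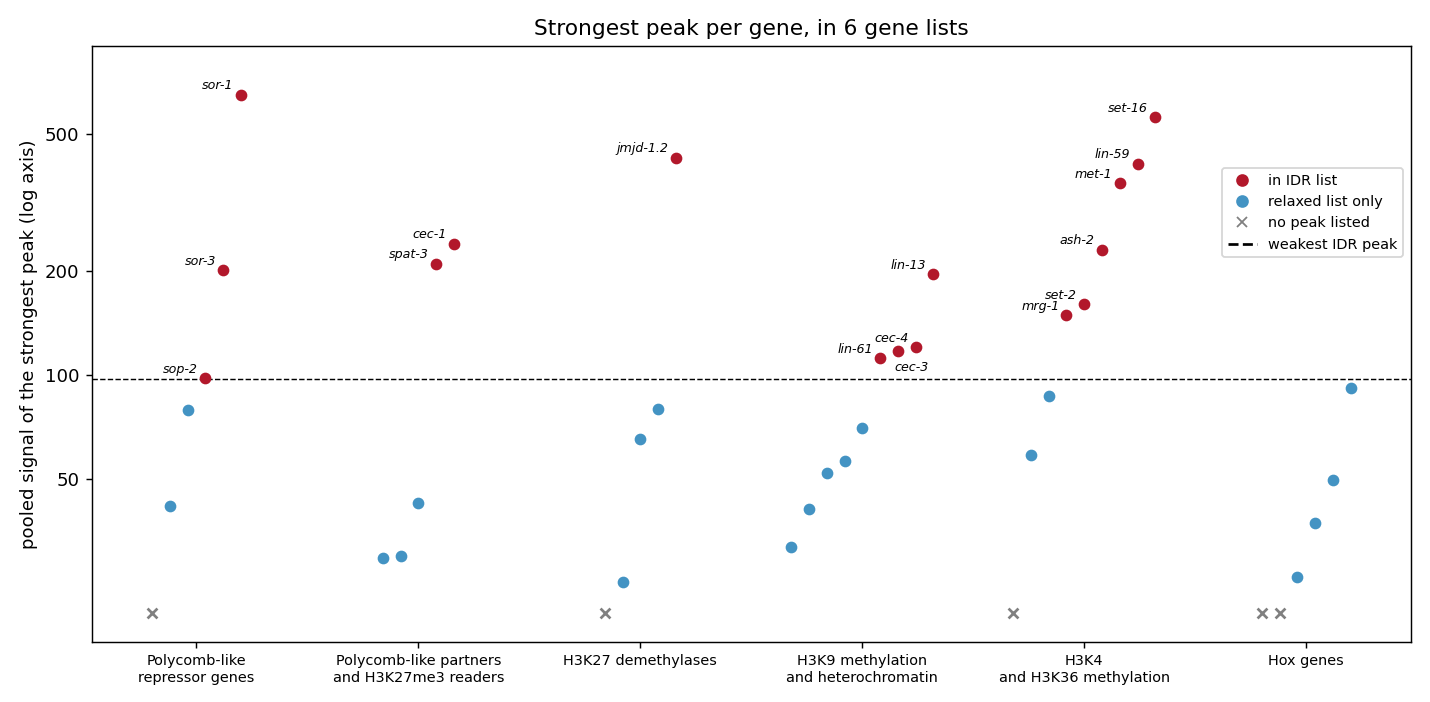
Pooled signal of the strongest peak in each gene's window (log axis) for the 6 repressor genes, at the left, and the 5 lists of related genes; red points are in the IDR list, blue points in the relaxed list alone and crosses had no listed peak, and the dashed line is the weakest IDR peak. Of the 9 genes of H3K4 and H3K36 methylation 6 stand above the line, and none of the 6 Hox genes does.

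The tagged gene itself, K12H6.12, had no summit in its window in any of the 4 lists.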

How the data were processed

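Chromatin immunoprecipitation was followed by sequencing in 2 biological replicates of 1 group. In the deposited readme the assembly is ce11. There are 4 lists: 27073 peaks for replicate 2, 30000 for replicate 3, 30000 for both pooled, each called against 1 control alignment, and 2268 IDR peaks derived from these. All 2268 recur in the pooled list as its strongest. The signal of a peak is a score of the authors' caller with unstated scaling, used within a list only, and its significance is a deposited −log10 q-value. The sources used here do not name the caller, the aligner or the IDR threshold. Depth is unknown, since the lists hold no read totals.

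Summits were placed in gene windows of Ensembl release 115 (WBcel235, the same assembly as ce11) with Python 3.11.15, pandas 2.3.3 and NumPy 2.4.6. Each IDR entry counted singly. The window count was tested on simulated data. Sequences came from the RefSeq genome of WBcel235. RefSeq gave the same ends for 5 of the 6 genes, sop-2 being the exception.

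Members and lists were chosen with earlier results of these data known. Genes named are all 6 members, related genes with an IDR summit, genes nearest to a member's IDR summit or with a 5' end within 1000 bp of it, the genes next above and below sor-1 in strongest signal, and K12H6.12; other genes named were chosen after their values were seen. No p-value was computed, since there is 1 group and the members' peaks chose them. Alternatives were other windows, interval overlap, nearest gene only, the 1134 strongest IDR peaks, and each replicate alone.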

Additional observations from a re-analysis of the deposited data

How the results depend on the processing

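Of 33 alternative values 30 stayed within 1.5 times the reported one. The exceptions were the share of coding genes with an IDR summit, 7.10% in the promoter window, 6.09% for the 1134 strongest IDR peaks and 7.59% with each summit given only to the nearest coding 5' end, against 11.4%. By construction each counts fewer peaks, a shorter window or 1 gene per summit. The count of members was 3 under 5 of its 7 alternatives and 2, without sop-2, among the 1134 strongest IDR peaks and without replicate 3. All of these settings gave summits to coding genes only. None could therefore give the sor-3 peak to the tRNA gene beside it. The related genes numbered 10 to 13. No paired analysis was possible because there is 1 group. With depth unknown, no detection limit can be given for the empty mes-3 window.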

Other observations

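Within 10000 bp beyond the windows of the 6 genes, the IDR list held 3 further summits. At sor-1 they were that of cec-1, 2603 bp past the 3' end, and one 3995 bp before the window, with a signal of 178, past the 3' end of ZK353.9 and 2677 bp from its 5' end. At mes-2 one lay 1759 bp past the 3' end, with a signal of 101, 135 bp upstream of the kinetochore gene kbp-3. None lay this close to sor-3, sop-2, mes-3 or mes-6.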
